A study of Mus musculus with 4 samples.

Results

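The genes described are those of complement components and receptors: the 3 chains of C1q (C1qa, C1qb, C1qc), the components C2 and C3, complement factor B (Cfb), properdin (Cfp) and the anaphylatoxin receptors C3ar1 and C5ar1. They were chosen by name, as all probe sets annotated to one of these genes alone. Of the 9 genes named, 8 had such probe sets, 16 in all, out of 18193 genes with a 1-gene probe set, and C3 was not analysed here. The levels come from 4 arrays of macrophages grown from mouse bone marrow over 5 days in M-CSF, the growth factor that drives macrophage development. The 4 groups were Jmjd3-/- cells given 100 ng/ml LPS for 4 h, Jmjd3-/- cells left unstimulated, wild-type cells given the same LPS, and unstimulated wild-type cells, with 1 array each. Jmjd3 is the protein of Kdm6b, a demethylase of lysine 27 of histone H3, and LPS is a bacterial cell wall component sensed by Toll-like receptor 4. The labels used here give no strain, age or deleted exon, and do not say whether animals were pooled or cultures were separate. No difference between 2 arrays therefore has a replicate check. The p-values rest on these 4 arrays and on a spread taken partly from all genes tested, and measure no spread between replicates.

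Complement is a cascade of blood and tissue proteins that marks particles for uptake and forms attack complexes in membranes. C1q recognises antibody-coated or dying cells and starts the classical pathway, which cuts C2. Factor B is the catalytic partner of C3 in the alternative pathway, which properdin stabilises, and the receptors C3aR and C5aR1 bind the small fragments released on the way. The liver makes most plasma complement, but macrophages make C1q, factor B and properdin themselves and carry both receptors.

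The arrays had medians between 4.15 and 4.24 on the log2 intensity scale, and log2 6, reached by 32.1% to 34.5% of probe sets per array, served as the floor for comparisons. The brightest Kdm6b probe set read 10.83 in Jmjd3-/- cells with LPS and 9.82 in unstimulated ones, against 11.23 and 10.33 in wild-type cells. A second one went the other way, at 6.07 and 5.35 in Jmjd3-/- cells against 5.22 and 4.71 in wild-type cells. The third stayed under the floor on all 4 arrays. Where on the gene these probe sets lie relative to the deletion is not known here, so they do not check the labels. All 9 measured macrophage markers reached the floor on all 4 arrays, with a median of 12.16 in Jmjd3-/- cells with LPS and 11.82 without, and of 11.84 and 11.18 in wild-type cells. Most granulocyte and stromal markers were higher in Jmjd3-/- cells. Of 11 granulocyte markers tested 9 rose and 1 fell in Jmjd3-/- cells, and of 11 stromal markers tested 10 rose and 0 fell. Among all genes tested, 6.39% rose and 3.12% fell. Ngp, Ltf, Mpo, Elane and Prtn3 of the granulocyte list reached the floor on Jmjd3-/- arrays alone. So did Col3a1, Col5a1, Thbs2, Mgp, Pdgfra, Serpinh1 and Dcn of the stromal list. These genes thus entered the test through the group where they were high. The granulocyte marker that fell was Mmp8, a neutrophil collagenase gene, which read 7.14 and 8.71 in Jmjd3-/- cells with and without LPS, against 10.55 and 11.14 in wild-type cells (-2.92, adjusted p = 0.00685, limma, lower in both states). Of 11 markers of granulocytes and their precursors, 11 reached the floor on each Jmjd3-/- array, against 6 with LPS and 3 without on the wild-type arrays. The log2 of their summed linear levels was 15.22 on both Jmjd3-/- arrays, against 12.22 and 11.76 on the wild-type arrays. Of 13 stromal markers, 11 reached the floor with LPS and 10 without in Jmjd3-/- cells, against 4 and 2 in wild-type cells, with log2 summed levels of 14.19 and 14.50 against 9.56 and 9.05. None of 3 hepatocyte markers reached the floor on any array. In such bulk samples, fewer cells of a type and less RNA per cell cannot be told apart. The granulocyte and stromal markers differed between the same arrays that the genotype differences below compare, and their part in those differences was not tested.

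**Figure D1:**
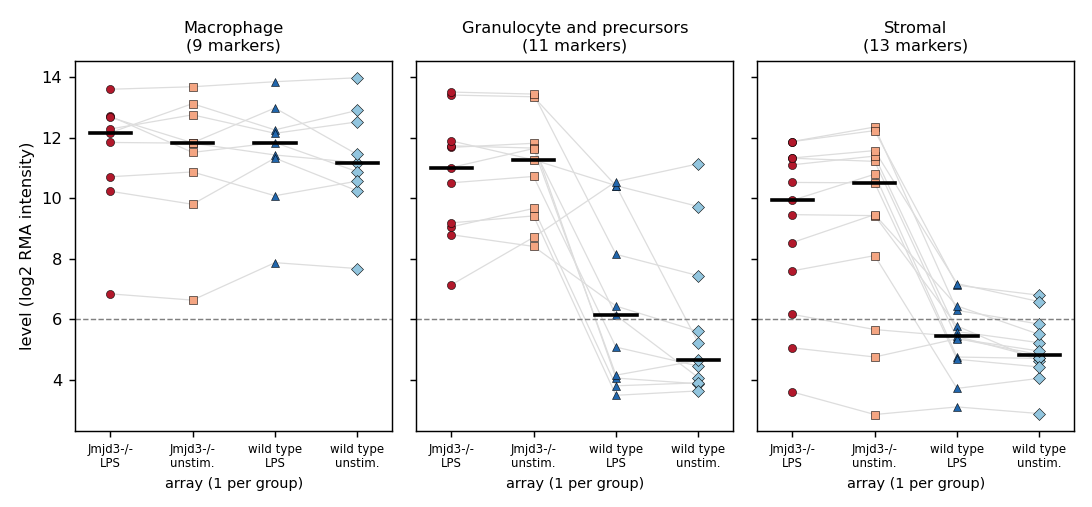
Levels of macrophage, granulocyte and stromal marker genes (log2 RMA intensity, 1 point per gene, grey lines join a gene) on the 4 arrays, with the median as a black bar and the floor of log2 6 dashed. Macrophage medians lie between 11.18 and 12.16 on all arrays, while granulocyte medians are 11.02 and 11.27 on the Jmjd3-/- arrays, against 6.13 and 4.65 on the wild-type arrays.

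For 5 of the 8 genes the RefSeq promoter table of build GRCm38.p6 held an entry. The 250 bases before the start are shown for 4 of them, C1qb and C1qc because these 2 genes lie next to each other and both had higher readings in Jmjd3-/- cells, and the receptor genes because their readings with LPS differed between the genotypes. Each is written 5′ to 3′ on the minus strand of its chromosome, and capitals mark the motif matches described below.
C1qb, chr4:136886201-136886450: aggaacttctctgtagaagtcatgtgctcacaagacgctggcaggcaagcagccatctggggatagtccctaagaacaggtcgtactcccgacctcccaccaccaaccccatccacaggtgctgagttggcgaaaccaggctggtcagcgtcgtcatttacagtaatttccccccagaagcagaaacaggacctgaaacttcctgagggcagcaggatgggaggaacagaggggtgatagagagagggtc
C1qc, chr4:136892915-136893164: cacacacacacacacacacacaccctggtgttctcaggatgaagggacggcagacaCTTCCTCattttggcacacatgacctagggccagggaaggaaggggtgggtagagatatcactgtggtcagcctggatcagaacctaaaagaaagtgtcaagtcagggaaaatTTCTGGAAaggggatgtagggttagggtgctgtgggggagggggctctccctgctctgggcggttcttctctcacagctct
C3ar1, chr6:122856158-122856407: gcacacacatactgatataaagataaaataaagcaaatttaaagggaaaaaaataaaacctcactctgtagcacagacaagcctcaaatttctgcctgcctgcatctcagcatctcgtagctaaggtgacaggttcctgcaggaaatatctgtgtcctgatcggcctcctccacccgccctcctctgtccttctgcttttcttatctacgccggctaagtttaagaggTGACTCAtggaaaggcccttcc
C5ar1, chr7:16259339-16259588: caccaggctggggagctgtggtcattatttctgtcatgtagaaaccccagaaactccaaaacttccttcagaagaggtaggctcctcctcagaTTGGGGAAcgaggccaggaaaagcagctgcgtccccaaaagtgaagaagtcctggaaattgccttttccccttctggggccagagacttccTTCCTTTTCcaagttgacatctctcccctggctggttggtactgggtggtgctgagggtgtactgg

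Both strands of the 5 windows, that of Cfp included, were searched for short letter motifs, and the same search over 32851 promoter windows gives the share that holds each. C3ar1 held the AP-1 form TGANTCA at positions -22 to -16, counted from the start, a motif in 6.75% of promoters. C5ar1 held the interferon response core GAAANNGAA at -66 to -58 on the opposite strand, present in 7.13% of promoters. C1qc held the PU.1 form GAGGAAG, found in 10.6%, at -194 to -188 on the opposite strand. C1qc and C5ar1 each held the C/EBP form TTNNGNAA, which 36.8% of promoters hold. None of the matches overlapped another. The windows of the 5 genes did not hold the letters of the kappaB forms GGANTTCC (4.00% of promoters) and GGANTTTCC (1.07%), the gamma-activated site TTCNNNGAA (7.02%), the Maf form TGCTGAC (3.81%) or the cyclic AMP response element TGACGTCA (1.55%). Matches are a description of the letters, not of binding.

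Across both genotypes, 1 of the 8 genes rose with LPS, Cfb, and 1 fell, C1qc. Among all 9385 genes tested 11.2% rose and 18.8% fell, so the counts of 1 in each direction are near the background. The median LPS effect over the 8 genes was -0.29 on the log2 scale, against -0.22 over all genes tested. The test was an additive model of genotype and LPS on all 4 arrays with 1 residual degree of freedom. Its spread combines how far apart a gene's LPS responses in both genotypes lie with a prior taken from all genes tested. The prior, at 3.84 degrees of freedom, has the larger weight. A gene whose responses lie far apart, such as Cfb, can therefore still pass. All adjusted p-values are Benjamini-Hochberg values over all genes tested. Between the genotypes, none of the 8 passed in limma with Benjamini-Hochberg adjustment, against 6.39% of all genes higher and 3.12% lower in Jmjd3-/- cells. At an unadjusted p below 0.05, 5 of the 8 differed in limma, against 2287 of all 9385 genes, and 6 of the 8 had a positive difference, against 5167 of 9385.

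**Figure D2:**
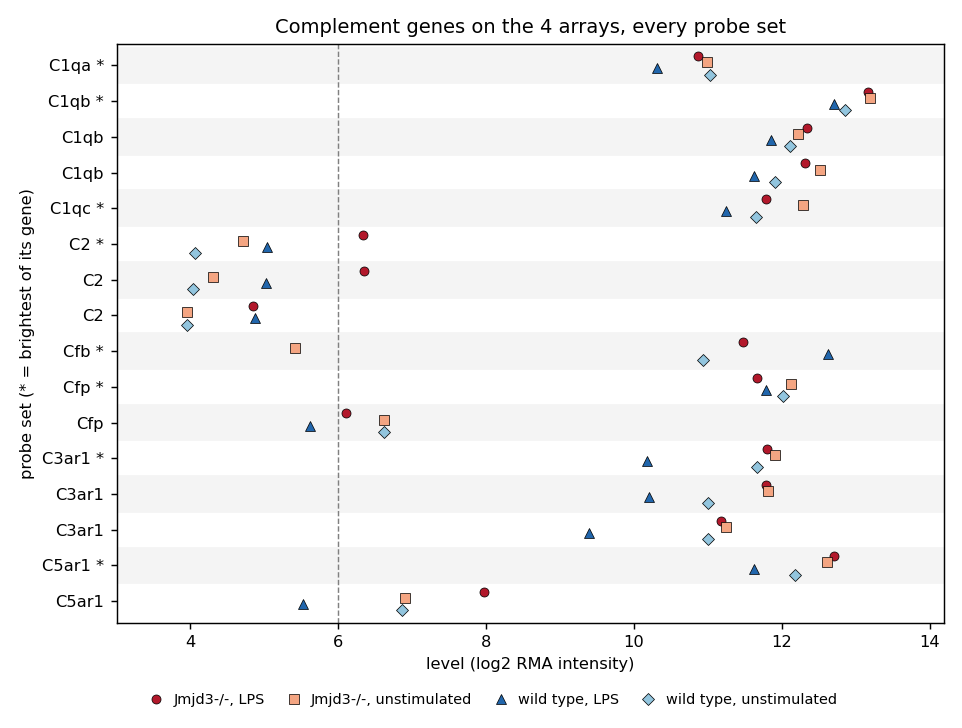
Levels (log2 RMA intensity) of all 16 probe sets of the 8 genes, 1 symbol per array, with the floor of log2 6 dashed. Cfb stands apart through its reading of 5.41 in unstimulated Jmjd3-/- cells, and wild type with LPS is the lowest of the 4 arrays on every C3ar1 and C5ar1 probe set.

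Cfb, the gene of factor B, had the widest range of the 8 genes over the 4 arrays, 7.21 on the log2 scale. It read 11.48 in Jmjd3-/- cells with LPS and 5.41 in unstimulated Jmjd3-/- cells, against 12.62 in wild-type cells with LPS and 10.93 in unstimulated wild-type cells. The unstimulated Jmjd3-/- array was thus under the floor, and the other 3 lay far above it. LPS went with a difference of 6.07 in Jmjd3-/- cells, or 67.0-fold, and of 1.69 in wild-type cells, or 3.22-fold. With the reading below the floor set to log2 6, the fold in Jmjd3-/- cells was 44.5. Over both genotypes Cfb rose by 3.88 (standard error 1.01, adjusted p = 0.0455, limma, higher in both genotypes). That call was lost in 5 of 9 alternative settings, with adjusted p between 0.0587 and 0.285 in limma.

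Between the genotypes, Cfb was 45.9-fold lower in unstimulated Jmjd3-/- cells (-5.52), or 30.5-fold lower with the reading below the floor set to log2 6. With LPS it was 2.21-fold lower in Jmjd3-/- cells (-1.14). The difference over both states was -3.33, with a 95% interval from -5.95 to -0.71, and did not pass (adjusted p = 0.128, limma, lower in both states). The LPS response of Cfb in Jmjd3-/- cells exceeded that in wild-type cells by 4.38, or by 3.79 with the reading below the floor set to log2 6. This value has no replicate check. Cfb had 1 probe set, so no second one could be set beside it.

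The profiles most like that of Cfb over the 4 arrays, each centred on its own mean, were those of Acod1, Ccl22 and Gbp6, at root mean square differences of 0.44, 0.50 and 0.54 on the log2 scale out of 9384 genes compared. Acod1, the itaconate-producing enzyme gene, read 13.21 and 6.39 in Jmjd3-/- cells with and without LPS, against 13.32 and 11.56 in wild-type cells. Ccl22, a chemokine gene, read 11.17 and 3.98 in Jmjd3-/- cells with and without LPS, against 12.04 and 9.50 in wild-type cells. Gbp6, an interferon-inducible GTPase gene, read 11.41 and 5.05 in Jmjd3-/- cells with and without LPS, against 11.80 and 9.43 in wild-type cells. In all 3, as in Cfb, the unstimulated Jmjd3-/- array was the lowest, which follows from choosing them by likeness to Cfb on these arrays.

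Cfb lies on chromosome 17 beside C2, in the region between the class I and class II histocompatibility genes. The nearest measured protein-coding genes, 3 on each side of the pair, were Dxo, Skiv2l and Nelfe and then Zbtb12, Ehmt2 and Slc44a4, chosen after the values of Cfb were seen. Their differences between Jmjd3-/- and wild-type cells lay between -0.44 and 0.79 with LPS and between -0.26 and 0.41 without. Of these, Skiv2l, Zbtb12 and Slc44a4 stayed under the floor on all 4 arrays.

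**Figure D3:**
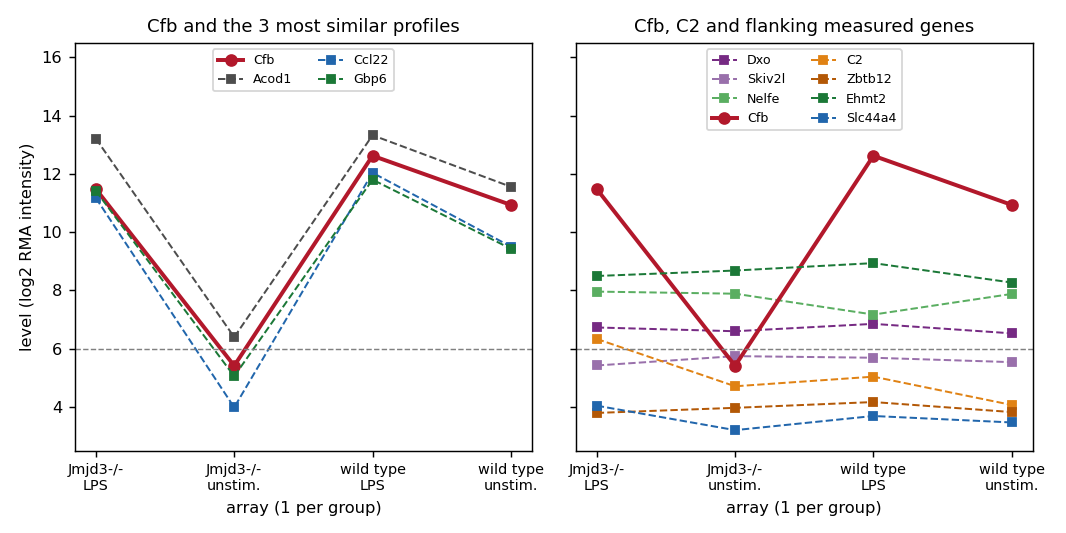
Levels (log2 RMA intensity) on the 4 arrays of Cfb with its 3 most similar profiles (left) and with C2 and the nearest measured genes on both sides (right), with the floor of log2 6 dashed. Cfb reads 5.41 in unstimulated Jmjd3-/- cells, against 10.93 in unstimulated wild-type cells, while each of the 6 flanking genes differs by 0.41 or less there.

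C2 encodes the classical pathway protease that is the counterpart of factor B. Its brightest probe set read 6.33 in Jmjd3-/- cells with LPS and 4.71 without, against 5.04 and 4.07 in wild-type cells, so it passed the floor on 1 array. The LPS minus unstimulated difference was 1.62 in Jmjd3-/- cells and 0.97 in wild-type cells, with 3 of the 4 readings in the background range. The second probe set gave nearly the same readings, with 6.35 and 4.30 in Jmjd3-/- cells against 5.03 and 4.03 in wild-type cells. The third stayed under the floor on all 4 arrays, with a difference between the genotypes with LPS of -0.03. The shared LPS difference of 1.30 did not pass (adjusted p = 0.0779, limma), but passed in 2 of 7 alternatives, without a floor and without an intensity trend (adjusted p = 0.0377 and 0.0361, limma).

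The C1q chains assemble into one molecule, and their 3 genes lie side by side on chromosome 4. C1qc read 11.79 in Jmjd3-/- cells with LPS and 12.29 without, against 11.24 and 11.66 in wild-type cells. Both Jmjd3-/- arrays were thus above both wild-type arrays, and in each genotype the array with LPS was the lower one. It fell by 0.46 with LPS (standard error 0.12, adjusted p = 0.0460, limma, lower in both genotypes), a call lost in 4 of 9 alternatives at adjusted p between 0.0501 and 0.405 in limma. Its genotype difference was 0.59, with a 95% interval from 0.28 to 0.90, and lay just outside the threshold (adjusted p = 0.0501, limma, higher in both states). It passed in 3 of 9 alternatives, with adjusted p between 0.0236 and 0.0406 in limma.

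C1qb, on its brightest probe set, read 13.17 and 13.20 in Jmjd3-/- cells with and without LPS, against 12.71 and 12.86 in wild-type cells. The Jmjd3-/- arrays were again both above the wild-type arrays on all 3 C1qb probe sets, by 0.46 to 0.69 with LPS and 0.12 to 0.62 without. The genotype difference of the brightest was 0.40 with an interval from 0.18 to 0.62 (adjusted p = 0.0555, limma), and it passed in 4 of 9 alternatives at adjusted p between 0.0258 and 0.0493 in limma. With LPS, C1qb differed by -0.03 in Jmjd3-/- cells and -0.14 in wild-type cells, which did not pass.

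C1qa read 10.87 and 10.99 in Jmjd3-/- cells with and without LPS, against 10.31 and 11.03 in wild-type cells. Here wild type with LPS was the lowest array and the other 3 lay close together. The C1qa difference with LPS was thus -0.13 in Jmjd3-/- cells and -0.72 in wild-type cells, and neither shared effect passed (adjusted p = 0.169 for LPS and 0.496 for genotype, limma). The genes nearest the 3 C1q genes that reached the floor, Kdm1a and Zbtb40, differed between Jmjd3-/- and wild-type cells by 0.18 and -0.26 with LPS and by 0.61 and 0.25 without.

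C3ar1, the receptor gene for the C3a fragment, read 11.80 in Jmjd3-/- cells with LPS and 11.91 without, against 10.17 and 11.66 in wild-type cells. The wild-type array with LPS was the lowest, and the other 3 lay close together. LPS went with a difference of -0.11 in Jmjd3-/- cells and of -1.49 in wild-type cells, where C3ar1 was 2.80-fold lower. The other 2 probe sets gave -0.03 and -0.07 in Jmjd3-/- cells, against -0.80 and -1.61 in wild-type cells, so all 3 had the larger difference in wild type. With LPS, C3ar1 was 3.09-fold higher in Jmjd3-/- cells (1.63), and the other probe sets gave 1.58 and 1.78. Without LPS the 3 differences were 0.25, 0.81 and 0.24. The shared genotype difference of 0.94, with an interval from 0.06 to 1.82, did not pass (adjusted p = 0.183, limma, higher in both states). With each probe set fitted on its own, 1 of the 3 passed for genotype, with a difference of 1.20 (adjusted p = 0.0306, limma), and the others did not (adjusted p = 0.163 and 0.179, limma).

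C5ar1, the receptor gene for C5a, read 12.70 in Jmjd3-/- cells with LPS and 12.61 without on its brightest probe set, against 11.62 and 12.18 in wild-type cells. With LPS it was 2.12-fold higher in Jmjd3-/- cells (1.08), and without LPS the difference was 0.44. The dimmer probe set read 7.97 and 6.90 in Jmjd3-/- cells with and without LPS, against 5.52, under the floor, and 6.86 in wild-type cells. Both thus had wild type with LPS as the lowest array, and the dimmer one differed by 2.44 between the genotypes with LPS. The shared genotype difference of the brightest was 0.76, with an interval from 0.30 to 1.22, and did not pass (adjusted p = 0.0720, limma), but passed after quantile normalization (adjusted p = 0.0357, limma).

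Cfp, the properdin gene on the X chromosome, was the least variable of the 8 genes, with a range of 0.45. It read 11.67 and 12.12 in Jmjd3-/- cells with and without LPS, against 11.79 and 12.02 in wild-type cells. In both genotypes the array with LPS was the lower one, by 0.45 in Jmjd3-/- and 0.23 in wild-type cells, and the shared difference of -0.34 did not pass (adjusted p = 0.0987, limma). The genotype difference was -0.01, with an interval from -0.33 to 0.31, and the dimmer Cfp probe set read 6.11 and 6.61 in Jmjd3-/- cells with and without LPS, against 5.62 and 6.62 in wild-type cells.

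**Figure D4:**
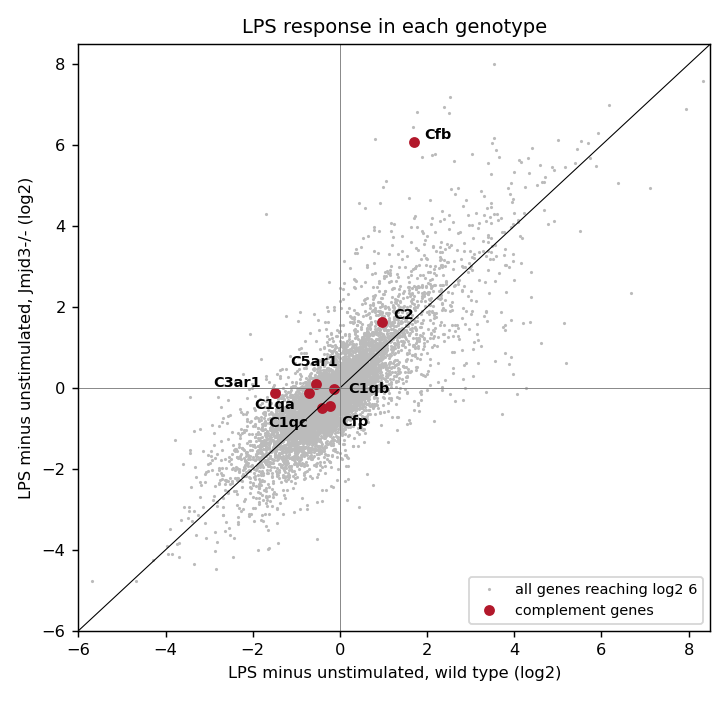
LPS minus unstimulated difference (log2) in Jmjd3-/- cells (vertical axis) and in wild-type cells (horizontal axis), with grey points for the 9385 genes past the floor, red points for the 8 genes and the line of equal response. Cfb lies above the line at 6.07 against 1.69 and C3ar1 at -0.11 against -1.49.

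Counted without a test, 2 of the 8 genes differed by 2-fold or more with LPS in Jmjd3-/- cells, Cfb and C2, where the share among all genes past the floor was 26.5%. In wild-type cells these were 2 of 7, Cfb higher and C3ar1 lower, where the background was 24.2%. Between the genotypes with LPS, 4 of 8 differed by 2-fold or more, against 15.4% of all genes, with C2, C3ar1 and C5ar1 higher and Cfb lower in Jmjd3-/- cells. C2 is counted here and with LPS in Jmjd3-/- cells through 1 reading past the floor, and with readings below the floor set to log2 6 both its differences were 0.33, so its 2-fold differences are not measured sizes. Without LPS it was 1 of 7, Cfb, against 15.3% of all genes. The LPS responses differed by 2-fold or more between the genotypes in 2 of the 8, Cfb and C3ar1, against 9.92% of all genes. Cfb had the larger rise in Jmjd3-/- cells (6.07, against 1.69 in wild-type cells). C3ar1 had the larger fall in wild-type cells (-1.49, against -0.11 in Jmjd3-/- cells). The comparisons share arrays, so these counts are not independent of each other. The median difference between the genotypes over the 8 genes was 0.55 with LPS and 0.30 without, against 0.04 and 0.07 over all genes past the floor. The value without LPS keeps C2, which was under the floor on both unstimulated arrays, so it is not filtered like the background.

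Profiles like those of the other genes with a range of 1 or more were closer than for Cfb. C1qc was most like Gnptg, Tmem109 and Fkbp3, each within 0.03 on the log2 scale over the 4 arrays. C3ar1 was most like Slc25a15, Rab27a and Psrc1, at 0.07 to 0.10. C5ar1 was most like Cenpw, Slc39a13 and Slc7a5, at 0.02 to 0.04, and C2 was most like Wdr59, Gm35658 and Ffar2, at 0.08 to 0.11. With 4 arrays and 9384 genes, such closeness describes the arrays only.

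Of 46 other complement genes listed, 37 were measured and 15 reached the floor. None of the 6 measured genes of the terminal, membrane-attacking part did so. Between the genotypes 4 of the 15 rose and 4 fell in Jmjd3-/- cells, where 6.39% of all genes rose and 3.12% fell. Of the 4 that rose, Fcnb, Serping1 and Vsig4 reached the floor on Jmjd3-/- arrays alone, so they entered the test through the group where they were high. With LPS 2 rose and 2 fell, near the 11.2% and 18.8% of all genes. The 15 genes had a median genotype difference of 0.34, against 0.05 over all genes tested. They include Fcnb, Serping1, Vsig4 and Cd59a, which reached the floor on Jmjd3-/- arrays alone. The floor thus favours a positive median, and nothing is concluded from it.

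Among the starting components, the ficolins, lectins that bind microbial sugars, were higher in Jmjd3-/- cells. Fcnb read 8.17 and 8.18 in Jmjd3-/- cells with and without LPS, against 3.51 and 3.36, under the floor, in wild-type cells, and rose by 4.74 (adjusted p = 0.00216, limma, higher in both states). With readings below the floor set to log2 6, Fcnb differed by 2.17 with LPS and 2.18 without. Fcna read 10.10 and 10.46 in Jmjd3-/- cells with and without LPS, against 7.33 and 7.14 in wild-type cells, and rose by 3.04. C1ra, which encodes the C1r protease that C1q activates, read 7.83 and 6.55 in Jmjd3-/- cells with and without LPS, against 9.26 and 8.66 in wild-type cells. It fell by 1.77 in Jmjd3-/- cells (adjusted p = 0.0166, limma, lower in both states) and rose by 0.95 with LPS.

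Among the regulators, Serping1, the gene of the C1 inhibitor, read 9.14 and 8.21 in Jmjd3-/- cells with and without LPS, against 5.69 and 4.48, both under the floor, in wild-type cells. It rose by 3.59 in Jmjd3-/- cells (adjusted p = 0.00210, limma, higher in both states) and by 1.07 with LPS. With readings below the floor set to log2 6, Serping1 differed between the genotypes by 3.14 with LPS and 2.21 without. Treated the same way, its LPS difference was 0.93 in Jmjd3-/- cells and 0 in wild-type cells. Cr1l, which encodes the membrane regulator Crry, read 10.38 and 10.25 in Jmjd3-/- cells, against 10.41 and 10.34 in wild-type cells, a difference of -0.06 with an interval from -0.48 to 0.36.

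Among the receptors for fragments of C3 on cell surfaces, the integrin genes fell in Jmjd3-/- cells, while the rise of Vsig4 rested on dim readings. Vsig4, a macrophage receptor for C3b, read 5.91 and 6.54 in Jmjd3-/- cells with and without LPS, against 3.19 and 2.55 in wild-type cells, so it reached the floor on 1 array. The fitted Vsig4 difference of 3.36 passed (adjusted p = 0.0334, limma), but rests on readings in the background range, and with these set to log2 6 it was 0 with LPS and 0.54 without. The integrin genes Itgax, Itgam and their shared chain Itgb2, which form complement receptors, fell in Jmjd3-/- cells, with differences of -2.25, -1.04 and -0.76, and Itgam is also one of the macrophage markers above. Itgax read 9.98 and 9.90 in Jmjd3-/- cells with and without LPS, against 12.35 and 12.04 in wild-type cells. With LPS, Cd93 fell by 1.15 (adjusted p = 0.0186, limma), and Lrp1, a receptor for many ligands, fell as well (adjusted p = 0.0149, limma, lower in both genotypes). The granulocyte and stromal markers described above differed along with these genes, most of them higher in Jmjd3-/- cells and Mmp8 lower, and their part in these differences was not tested.

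**Figure D5:**
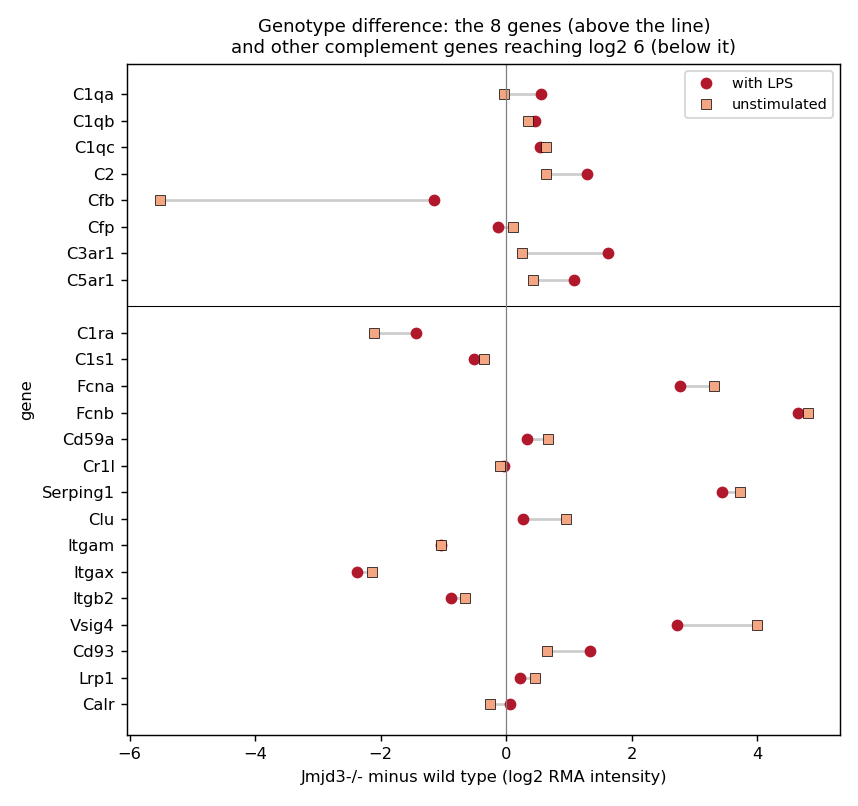
Jmjd3-/- minus wild type difference (log2 RMA intensity) with LPS (circles) and unstimulated (squares) for the 8 genes above the line and the 15 other complement genes that reached the floor below it. Cfb lies lowest at -5.52 unstimulated, on a Jmjd3-/- reading under the floor, and the large positive values of Fcnb, Serping1 and Vsig4 are taken against wild-type readings under the floor.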

How the data were processed

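Each sample was 1 array, and groups were taken from the sample titles. The authors deposited 1 intensity per probe set on the log2 scale, from RMA per the submitters' processing notes. The sources used here give no RMA version. Of 45101 probe sets, 34945 named 1 gene and 10156 were left out as controls or as naming several genes or none. Gene names follow the platform annotation, with 34741 matched by identifier to RefSeq assembly GRCm38.p6. Where a gene had several probe sets, the one brightest on average stood for it. limma 3.58.1 in R 4.3.3 was fitted to the 9385 genes reaching log2 6 on an array, with genotype and LPS as additive terms, an intensity trend and a prior of 3.84 degrees of freedom. Calls needed an adjusted p (Benjamini-Hochberg) under 0.05, and intervals are at 95%. The fit was tested on simulated data. A difference of 1 on the log2 scale, or 2-fold, was counted where the higher array reached log2 6. The number of arrays limits the precision. Members, lists and tests were chosen with earlier results of these data known. Named were all members, members of a list of other complement genes past the floor, and the 3 most similar profiles for members with a range of 1 or more. Markers of dendritic cells, of mast cells, basophils and eosinophils, and of T, B and NK cells were also listed. Tables and figures used Python 3.11.15 with pandas 2.3.3 and matplotlib 3.10.9.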

Additional observations from a re-analysis of the deposited data

Results flagged for a closer look

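For several probe sets a difference had opposite signs in the groups compared, with 1 array each and no test of the difference. C5ar1 differed with LPS by 0.086 in Jmjd3-/- cells and -0.56 in wild-type cells on its brightest probe set, and by 1.07 and -1.33 on the dimmer one. One of the 3 C1qb probe sets differed with LPS by 0.12 in Jmjd3-/- cells and -0.25 in wild-type cells. Between Jmjd3-/- and wild-type cells, C1qa differed by 0.56 with LPS and -0.039 without. Cfp differed between Jmjd3-/- and wild-type cells by -0.12 with LPS and 0.10 without on its brightest probe set, and by 0.49 and -0.0097 on the dimmer one.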

How the results depend on the processing

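The count of genes called with LPS, 2 of 8 as reported, was 1 with a floor of log2 8, without an intensity trend or with a robust prior, and 0 with the mean of a gene's probe sets or with genotype left out of the model. The count called between genotypes, 0 as reported, was 3 after quantile normalization, 1 with 64 added to the linear values and 2 with a robust prior. With each probe set fitted on its own it was 2, counting only the brightest of each gene. A dimmer probe set of C1qb and another of C3ar1 also passed in that fit (adjusted p = 0.0224 and 0.0306, limma). Over all genes, those called with LPS numbered 267 with genotype left out, in place of 2823. Those called between genotypes, 893 as reported, numbered 530 with mean probe sets, 461 with a floor of log2 8 and 111 with LPS left out. The causes were not tested. The 2-fold count with LPS in Jmjd3-/- cells was 1 in place of 2 with mean probe sets, with 64 added or with a floor of log2 8, as C2 then dropped out, and the count between the genotypes with LPS was 3 in place of 4 under the same settings. The count of genes whose LPS responses differed between the genotypes was 3 in place of 2 with mean probe sets. C5ar1 then differed by 1.52, against 0.64 as reported. The genotype difference of Cfp, -0.01 as reported, was 0.11 with mean probe sets and 0.040 after quantile normalization. Over all alternatives, 119 shared effects of single genes kept direction and side of the threshold, 10 came past it, 9 lost it and 2 reversed. Of the single-array differences, 110 were classed as unmoved and 10 as moved. A difference classed as unmoved could still shift by more than the gene's fitted spread. That of Cfb with LPS in Jmjd3-/- cells was 6.07 as reported and 4.77 with 64 added, at a fitted spread of 1.01. Quantile normalization and the added 64 moved the median of all genes by at most 0.053. No array could be left out with a test, since no residual degree of freedom remains. No paired analysis was possible because each group has 1 array. Readings under log2 6, as for C2 on 3 arrays and Cfb in unstimulated Jmjd3-/- cells, bound the size of differences only.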

Other observations

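The remaining marker lists were mostly dim. Of 7 dendritic cell markers, 1 reached the floor in Jmjd3-/- cells with LPS and 0 without, against 3 and 2 in wild-type cells, with Ccr7, a chemokine receptor gene, at 7.25 and 3.17 in Jmjd3-/- cells against 9.64 and 6.17 in wild-type cells. Of 7 mast cell, basophil and eosinophil markers 1 and 2 reached it in Jmjd3-/- cells, against 4 and 2 in wild-type cells. Among the 5 of these tested, 1 rose and 3 fell in Jmjd3-/- cells, where 6.39% of all genes rose and 3.12% fell. The one that rose, Prg2, read 8.82 and 8.28 in Jmjd3-/- cells with and without LPS, against 4.36 and 2.92, under the floor, in wild-type cells. Of 7 measured T, B and NK markers 0 reached the floor on either Jmjd3-/- array, against 2 on each wild-type array, Cd3e and Cd3g. Their part in the complement gene differences was not tested.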
